A study of Sus scrofa with 7 samples.

Results

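A list of 10 imprinted growth genes, H19, IGF2, IGF2R, PEG3, PEG10, MEST, SGCE, NNAT, PLAGL1 and GNAS, was followed in porcine extra-embryonic endoderm (pXEN) cells, naïve-like ESCs (nESCs) and primed ESCs (pESCs). The genes were found in the tables by symbol, taking the row with the most counts, and the rule uses no difference between the cell types. The tables of counts and FPKM list 29510 genes. Of the 10 symbols, 8 had a row, and 7 of these 8 held enough reads to be tested among 17447 genes. In short, PEG3, SGCE, MEST and PLAGL1, known for paternal expression, and IGF2R, known for maternal expression, were called lower in pXEN cells than in either ESC type. GNAS stood far higher in pESCs than in the other cells, NNAT was high in 1 pESC line, and no count was listed for IGF2 in any library.

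RNA was sequenced from 3 pXEN lines, 2 nESC lines and 2 pESC lines, with 1 library per line. The pXEN lines came from the inner cell mass (ICM) of in vitro produced parthenogenetic blastocysts and grew on mouse embryonic fibroblast feeders in LCDM medium with LIF, CHIR99021, (S)-(+)-dimethindene maleate, minocycline hydrochloride and Y27632. The nESC lines also came from the ICM and grew on mouse embryonic fibroblasts with FGF, LIF, PD0325901, CHIR99021, SB431542 and doxycycline. The pESC lines were converted from nESCs and grew on STO feeders with activin A, FGF, EGF, LIF and ITS. The lines were sampled at passages 26, 26 and 23 (pXEN 1, 2 and 3), 21 and 22 (nESC 1 and 2), and 20 for both pESC lines. The sources used here do not state whether the lines of a type came from separate embryos, from which embryos the ESC lines came, or which nESC line gave which pESC line. The p values therefore measure the spread between these lines only. Medium and cell type changed together in every comparison and cannot be told apart, nor can the feeder be told apart from them in the comparisons with pESCs.

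Imprinted genes are read mainly from 1 of the parental copies, according to methylation set in the egg or the sperm. Several of those read from the paternal copy promote growth of the embryo and placenta, while several of those read from the maternal copy restrain it, and the placenta and yolk sac are among the tissues where imprinted genes are best known. A parthenogenetic embryo has only maternal chromosomes. The parental copy named below for each gene is that reported for it in mammals, though not in every species or tissue. It was not tested in these cells. The reads were counted per gene without regard to allele, so the values are sums over both copies and show nothing of which copy was read.

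The libraries held 10408164 to 12995720 counted reads each, and 3 counts or fewer are given here as not detected, which corresponds to between 0.231 and 0.288 CPM (counts scaled to the library total) and covers counting error only. Of the 9 markers fixed for extra-embryonic endoderm, 8 were detected in every pXEN library, the exception being SOX7 at 3, 0 and 0 counts. The counts of SOX2 were 0, 30 and 0 in the pXEN lines and at least 1633 in each ESC library. POU5F1 had at most 5 counts in any library, so its row does not serve as a check of the ESCs. NANOG had 60 to 177 counts in the pXEN libraries against at most 22 in the ESC libraries. ESRRB had 0 counts in the pXEN lines, 26 and 17 in the nESC lines, and 840 and 923 in the pESC lines. UTF1 had 4, 21 and 3 counts in the pXEN lines, 0 and 1 in the nESC lines, and 1828 and 2043 in the pESC lines. Of the pluripotency markers found, only SOX2 was thus high in both ESC types. pXEN line 2 stood apart from its group. The summed FPKM of the 12 fibroblast markers found was 257 in pXEN line 2, against 20.2 and 22.6 in lines 1 and 3, 57.2 and 69.2 in the nESC lines, and 68.1 and 99.1 in the pESC lines. The sum of line 2 came mainly from the collagen genes COL1A1 (144 FPKM), COL3A1 (77.5) and COL1A2 (21.1), while TWIST1 (0.192) and DCN (1.40) were below their pESC levels. Of these 12 markers, 10 were detected in line 2, as in pESC line 2. In pXEN lines 1 and 3 the number was 7 and 8, in the nESC lines 6 and 7, and in pESC line 1 it was 9. FBN1, THY1 and PDGFRB were not among the rows found. Rows on chromosome Y held 38 counts in line 2 and 1 and 3 in lines 1 and 3. Their part in the results was not tested, and some results that move with line 2 are given without it. In bulk samples, fewer cells of a type and less RNA per cell cannot be told apart.

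The first pair of genes, IGF2 and H19, are neighbours under 1 control region and are known as paternally and maternally expressed, respectively. IGF2 encodes a growth factor of the fetus and placenta, and H19 a long noncoding RNA. No row carries the symbol H19. The only row with the symbol IGF2 (ENSSSCG00000024883) lies on scaffold GL896425.1, from 1 to 2416, with a listed length of 195 bases, and it had 0 counts in all 7 libraries. A row this short, off the assembled chromosomes, covers only a piece of a gene, so IGF2 was not detected on this row and its level elsewhere was not measured.

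IGF2R (ENSSSCG00000004044, chromosome 1, 9166935 to 9271240, minus strand of Sscrofa10.2) encodes the receptor that takes IGF2 to the lysosome and so limits growth, and it is known as maternally expressed. Its counts were 1930, 1917 and 2066 in pXEN lines 1 to 3, 3155 and 3668 in the nESC lines, and 3175 and 3475 in the pESC lines. Per length, its level was 20.1 ± 1.66 FPKM in pXEN cells (SD, n = 3), 31.4 ± 4.16 in nESCs (SD, n = 2) and 27.9 ± 0.482 in pESCs (SD, n = 2). Every pXEN line thus lay below every ESC line, by a small factor. The log2 fold change of pXEN cells was −0.65 ± 0.12 (SE) over nESCs, with an adjusted p of 0.00211 in edgeR's quasi-likelihood test. Over pESCs it was −0.47 ± 0.12 (SE), with an adjusted p of 0.0124 in the same edgeR test. The latter call was lost without pESC line 1 (edgeR adjusted p = 0.0655) or line 2 (0.0802), where adjusted p over all alternatives ranged from 0.00207 to 0.0802. The ESC types were not called different, at −0.19 ± 0.13 (SE) for pESCs over nESCs (edgeR adjusted p = 0.314).

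**Figure D1:**
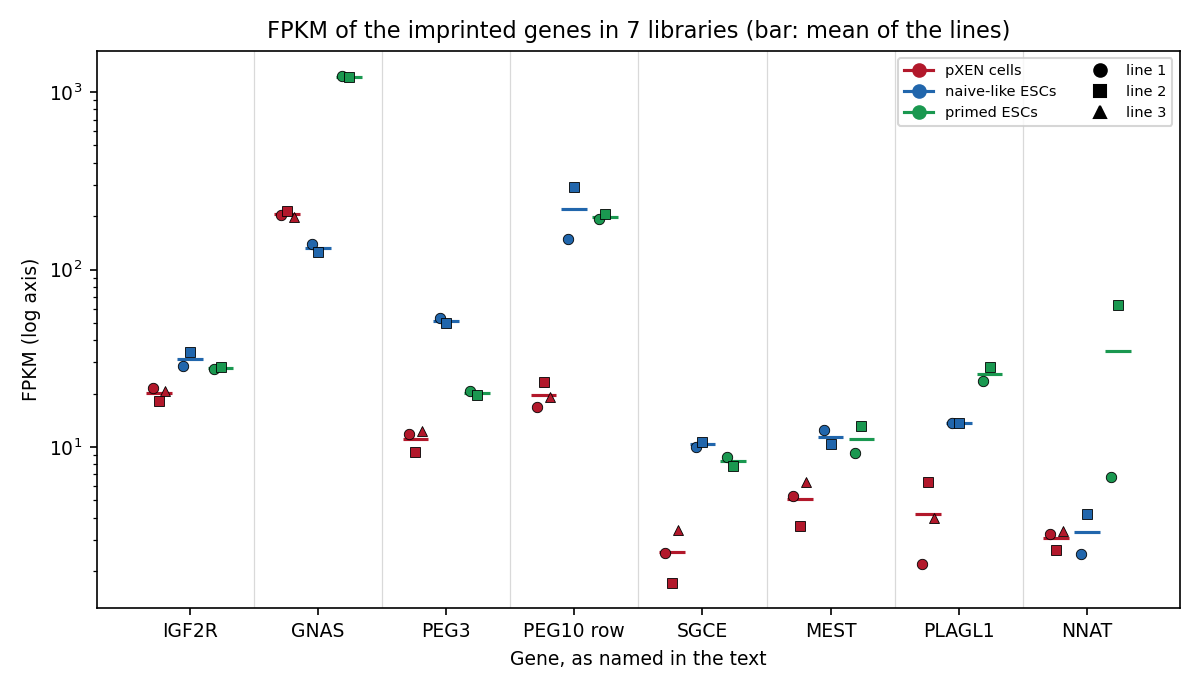
FPKM (log axis) of the 7 tested genes and of the row described as PEG10 in each of the 7 libraries, with colours for cell types, symbols for line numbers and a bar at the mean of the lines. The pXEN points lie below both ESC types for IGF2R, PEG3, SGCE, MEST, PLAGL1 and the PEG10 row, GNAS lies at 1231 and 1212 FPKM in the pESC lines and at most at 214 elsewhere, and the 2 pESC points of NNAT lie far apart, at 6.81 and 63.1.

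PEG3 (ENSSSCG00000003326, chromosome 6, 56621615 to 56629815, minus strand), a zinc finger protein known as paternally expressed, had the most counts of the tested genes of the list with paternal expression. The counts were 535, 497 and 620 in pXEN lines 1 to 3, 2961 and 2692 in the nESC lines, and 1197 and 1213 in the pESC lines. The 3 cell types did not overlap, and their order was nESCs, pESCs and pXEN cells. The levels were 51.5 ± 2.11 FPKM in nESCs (SD, n = 2), 20.1 ± 0.745 in pESCs (SD, n = 2) and 11.1 ± 1.54 in pXEN cells (SD, n = 3). PEG3 was thus 4.64-fold lower in pXEN cells than in nESCs, a log2 fold change of −2.22 ± 0.13 (SE) with an edgeR adjusted p of 5.86e-06. It was 1.79-fold lower in pXEN cells than in pESCs (−0.84 ± 0.13 SE on the log2 scale, edgeR adjusted p = 0.00106). It was also lower in pESCs than in nESCs (−1.37 ± 0.14 SE, edgeR adjusted p = 0.000335), so each step in the order passed the test.

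SGCE (ENSSSCG00000015328, chromosome 9, 81600723 to 81642852, minus strand) encodes ε-sarcoglycan, a membrane protein, and is known as paternally expressed together with its neighbour PEG10. SGCE had 24, 19 and 36 counts in the pXEN lines, 117 and 119 in the nESC lines and 106 and 101 in the pESC lines. The pXEN lines lay below all ESC lines. The log2 fold change of pXEN cells was −2.02 ± 0.31 (SE) over nESCs (edgeR adjusted p = 0.000993). Over pESCs it was −1.69 ± 0.31 (SE), with an edgeR adjusted p of 0.00306. Between the ESC types it was −0.33 ± 0.33 (SE) for pESCs over nESCs and did not pass the test (edgeR adjusted p = 0.484).

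No row has the symbol PEG10, a gene derived from a retrotransposon and needed for placenta formation in the mouse. A row with no symbol, ENSSSCG00000021104, is described in the tables as the PEG10 protein and lies 6766 bases from SGCE on the other strand (chromosome 9, 81649619 to 81651888). It is classed there as a pseudogene and was found by its description after the values were available, so it stands outside the list and outside its counts. Its counts were 376, 607 and 476 in the pXEN lines, 4074 and 7699 in the nESC lines, and 5529 and 6268 in the pESC lines. All pXEN lines lay far below all ESC lines, and the nESC lines differed from each other by 1.96-fold in FPKM. The level was 19.7 ± 3.26 FPKM in pXEN cells (SD, n = 3), 219 ± 101 in nESCs (SD, n = 2) and 199 ± 8.39 in pESCs (SD, n = 2). The row was 11.1-fold lower in pXEN cells than in nESCs (log2 fold change −3.48 ± 0.27 SE, edgeR adjusted p = 2.65e-05). It was 10.02-fold lower than in pESCs (−3.32 ± 0.27 SE, edgeR adjusted p = 5.22e-05), and the ESC types were not called different (−0.15 ± 0.29 SE, edgeR adjusted p = 0.725).

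MEST (ENSSSCG00000016554, chromosome 18, 19327494 to 19342338, minus strand), also called PEG1, encodes a hydrolase-like protein of mesoderm and is known as paternally expressed. Its counts were 169, 133 and 226 in the pXEN lines, 488 and 389 in the nESC lines, and 374 and 569 in the pESC lines. The pXEN lines lay below all ESC lines, while the ESC types overlapped. MEST was 2.25-fold lower in pXEN cells than in nESCs (log2 fold change −1.17 ± 0.25 SE, edgeR adjusted p = 0.00514). It was 2.18-fold lower than in pESCs (−1.12 ± 0.25 SE, edgeR adjusted p = 0.00726). Without pESC line 2 the call against pESCs was lost (−0.85, edgeR adjusted p = 0.0753, against 0.000504 to 0.0753 over all alternatives). The value for pESCs over nESCs was −0.05 ± 0.27 (SE, edgeR adjusted p = 0.925).

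PLAGL1 (ENSSSCG00000004127, chromosome 1, 23687363 to 23707500, plus strand) encodes a zinc finger transcription factor that restrains the cell cycle and is known as paternally expressed. Its counts were 48, 164 and 98 in pXEN lines 1 to 3, 372 and 357 in the nESC lines, and 667 and 853 in the pESC lines. The groups did not overlap, and within pXEN cells line 2, which had the most fibroblast marker RNA, was the highest and the FPKM spanned 2.93-fold. The level was 4.17 ± 2.10 FPKM in pXEN cells (SD, n = 3), and 3.08 as the mean of lines 1 and 3, against 13.7 ± 0.0372 in nESCs and 25.9 ± 3.29 in pESCs (SD, n = 2 each). The log2 fold change of pXEN cells was −1.70 ± 0.35 (SE) over nESCs (edgeR adjusted p = 0.00396) and −2.14 without line 2. Over pESCs it was −2.61 ± 0.35 (SE, edgeR adjusted p = 0.000554) and −3.06 without line 2, so the difference was larger without that line. The value for pESCs over nESCs was 0.91 ± 0.37 (SE) and not called (edgeR adjusted p = 0.0975). It was called without pXEN line 1 (adjusted p = 0.0242) or pXEN line 2 (edgeR adjusted p = 0.0073), and in a fit of only the 2 ESC types (edgeR adjusted p = 0.00145), where adjusted p over all alternatives ranged from 0.00145 to 0.33.

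NNAT (ENSSSCG00000007336, chromosome 17, 46043303 to 46045923, plus strand) encodes neuronatin, a small membrane protein of developing brain and endocrine cells, and is known as paternally expressed. It had 46, 44 and 54 counts in the pXEN lines, 44 and 71 in the nESC lines, and 125 and 1236 in the pESC lines. pESC line 2 was thus far above every other library, and the FPKM of the pESC lines differed by 9.26-fold. pXEN cells and nESCs overlapped, with a log2 fold change of −0.12 ± 0.83 (SE, edgeR adjusted p = 0.916). NNAT was called lower in pXEN cells than in pESCs (−3.50 ± 0.76 SE, edgeR adjusted p = 0.00637). Without pESC line 2 the value was −1.15 and not called (edgeR adjusted p = 0.0677, against 9.53e-07 to 0.0677 over all alternatives). The call of pESCs over nESCs (3.38 ± 0.88 SE, edgeR adjusted p = 0.0214) also rested on few lines. It was lost without pESC line 2 (1.02, edgeR adjusted p = 0.158), without nESC line 1 (adjusted p = 0.14) or nESC line 2 (0.0845), and with limma on FPKM with a pseudocount of 0.1 (limma adjusted p = 0.065) or 1 (0.07), within a range of 3.33e-05 to 0.158.

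GNAS (ENSSSCG00000007520, chromosome 17, 66304009 to 66423430, plus strand) is a complex locus. Its best known product, Gsα, couples receptors to adenylyl cyclase and is read from both copies in most tissues. The longer XLαs transcript is known as paternally expressed and the NESP55 transcript as maternally expressed. The row spans 119422 bases with 8583 bases of summed exon length, and its description names XLαs, so the transcripts of the locus were counted together and cannot be told apart.

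GNAS had 17115, 21120 and 18725 counts in the pXEN lines, 14513 and 12535 in the nESC lines, and 133449 and 140373 in the pESC lines. Both pESC lines stood far above the other libraries, and GNAS took 1.13% and 1.08% of their counts, the third most of any gene in each. Its share was 0.164% to 0.167% in the pXEN lines and 0.128% and 0.116% in the nESC lines. The level was 1222 ± 13.2 FPKM in pESCs (SD, n = 2), 205 ± 8.02 in pXEN cells (SD, n = 3) and 132 ± 10.19 in nESCs (SD, n = 2). The lines of each type differed from each other by at most 1.12-fold, less than any difference between the types. GNAS was 9.16-fold higher in pESCs than in nESCs (log2 fold change 3.20 ± 0.12 SE, edgeR adjusted p = 4.87e-06). It was 5.93-fold lower in pXEN cells than in pESCs (−2.57 ± 0.10 SE, edgeR adjusted p = 2.15e-06). It was 1.54-fold higher in pXEN cells than in nESCs (0.63 ± 0.10 SE, edgeR adjusted p = 0.00117), the only tested gene of the list with that direction.

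**Figure D2:**
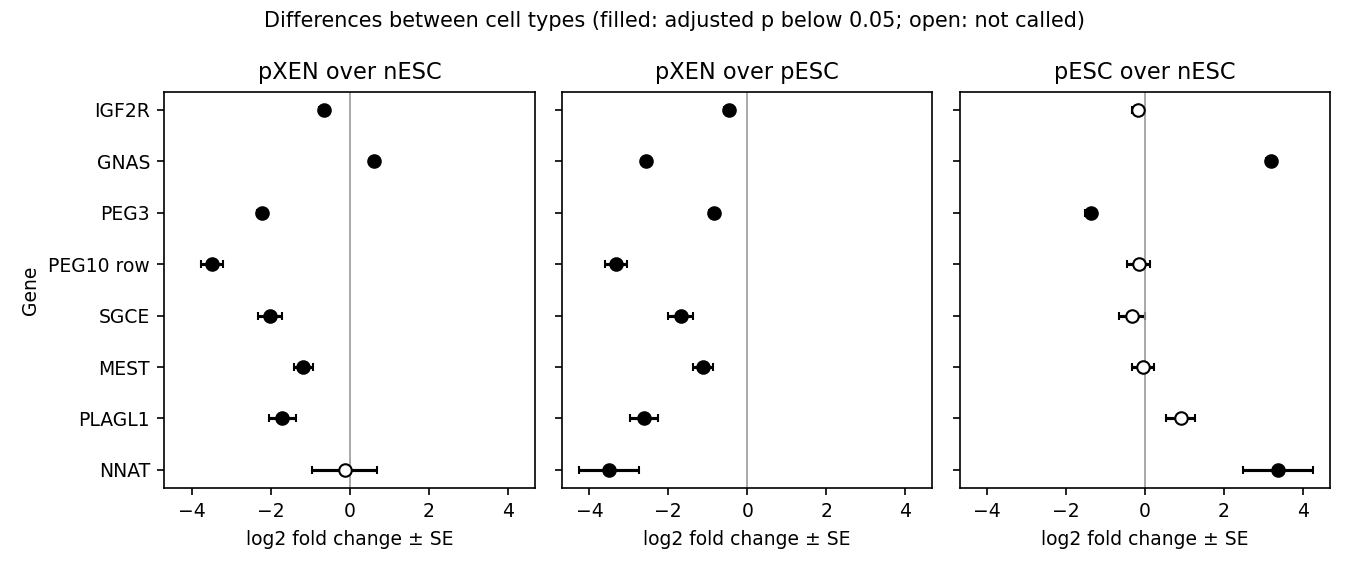
Log2 fold change (x axis, with SE as bars) of each gene in the 3 comparisons, from edgeR's fit of all 7 libraries, with filled points where the adjusted p was below 0.05. In pXEN cells over pESCs all 7 genes and the PEG10 row lie to the left of 0, in pXEN cells over nESCs only GNAS lies to the right, and the widest bars are those of NNAT.

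Over the list, 1 of the 7 tested genes was called higher and 5 lower in pXEN cells than in nESCs, where 28.3% of all tested genes were called higher and 26.2% lower (54.5% in either direction). Against pESCs, 0 were called higher and 7 lower, beside 23.9% and 24.4% of all tested genes (48.3% in either direction). Without pESC line 2 fewer genes of the list were called lower, and so were fewer of all tested genes. In pESCs against nESCs, 2 were called higher and 1 lower, beside 19% and 13.3% of all tested genes (32.2% in either direction). The count of 2 fell without pESC line 2, nESC line 1 or nESC line 2, as did the number of all tested genes called higher. It became 3 without pXEN line 1 or pXEN line 2. The comparisons share libraries and so are not independent. The median log2 fold change of the 7 genes was −1.17 for pXEN cells over nESCs, −1.69 over pESCs and −0.05 for pESCs over nESCs, where the median of all tested genes was 0.00, −0.01 and 0.01.

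The 5 tested genes of paternal expression, PEG3, MEST, SGCE, NNAT and PLAGL1, had a summed level of 25.0, 23.7 and 29.4 FPKM in the pXEN lines. The sum was 91.7 and 88.7 in the nESC lines and 68.9 and 132 in the pESC lines. All pXEN lines lay below all ESC lines, and pXEN line 2 was the lowest of the 3. NNAT gave 63.1 of the 132 FPKM of pESC line 2, and PEG3 gave more than any other gene of the sum in each nESC line, at 53.0 and 50.0 FPKM. Against nESCs, 4 of these 5 were lower in pXEN cells and NNAT was not called, beside 26.2% lower of all tested genes. Against pESCs all 5 were called lower, beside 24.4% of all tested genes, with the limits given above for NNAT and MEST.

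**Figure D3:**
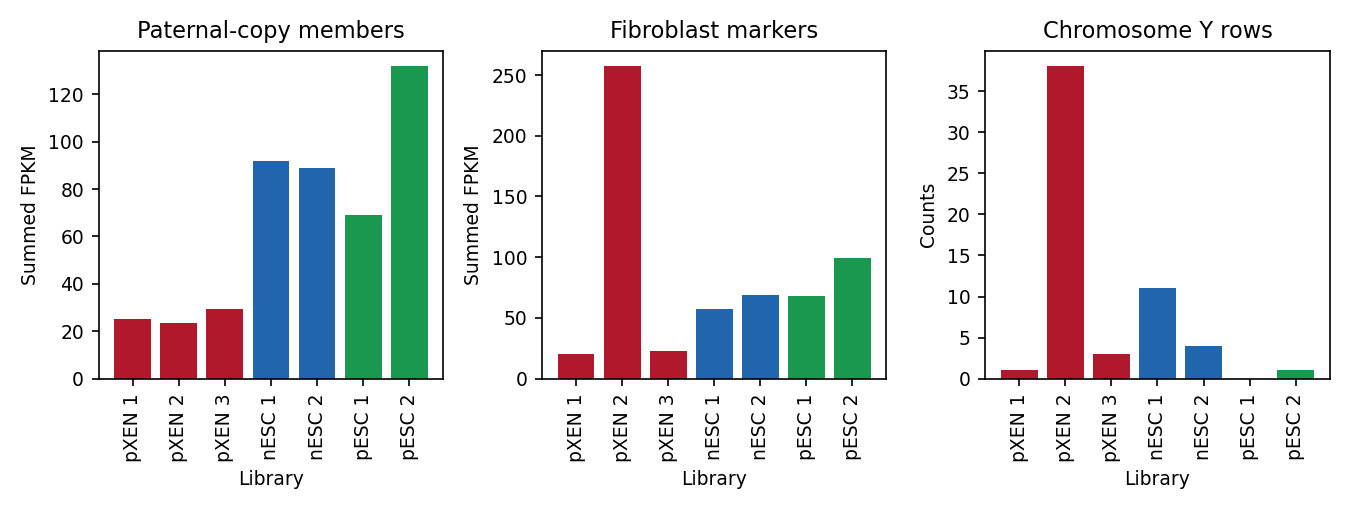
Summed FPKM of the 5 tested genes of paternal expression, summed FPKM of 12 fibroblast markers, and counts on chromosome Y rows in each library, with axes that start at 0. pXEN line 2 has the highest fibroblast sum (257) and the most chromosome Y counts (38), while its sum for the imprinted genes (23.7) is close to those of lines 1 and 3 (25.0 and 29.4).

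Of 20 other symbols known for paternal expression, 11 had a row and 8 were tested. Against nESCs, 2 were higher in pXEN cells, ZDBF2 (log2 fold change 2.89, edgeR adjusted p = 8.8e-06) and SNRPN (0.43, edgeR adjusted p = 0.00867), a splicing protein of the Prader-Willi region. The 3 that were lower were NAP1L5 (−1.48, edgeR adjusted p = 0.0294), MKRN3 (−0.96, edgeR adjusted p = 0.0116), a ubiquitin ligase, and IMPACT (−0.64, edgeR adjusted p = 0.00101). The call over nESCs was lost in 4 of 16 alternatives for NAP1L5 (adjusted p up to 0.131), in 2 for MKRN3 (up to 0.0969) and in 2 for SNRPN (up to 0.0755). These 8 thus did not share 1 direction, and their median was 0.00. The 2 higher and 3 lower stand beside 28.3% and 26.2% of all tested genes. Against pESCs none was higher, and ZDBF2 (−1.46, edgeR adjusted p = 0.000116), MKRN3 (−1.36, edgeR adjusted p = 0.0026) and IMPACT (−0.65, edgeR adjusted p = 0.00118) were lower, beside 23.9% higher and 24.4% lower of all tested genes. Between the ESC types, ZDBF2 (4.35, edgeR adjusted p = 7.24e-06) and SNRPN (0.40, edgeR adjusted p = 0.0297) were higher in pESCs, the latter not in 6 of 16 alternatives (adjusted p up to 0.168), and none was lower, beside 19% and 13.3% of all tested genes. ZDBF2 had 141, 167 and 169 counts in the pXEN lines, 26 and 21 in the nESC lines, and 514 and 553 in the pESC lines. The number called against nESCs fell without nESC line 1 or nESC line 2, as did the number of all tested genes called. Against pESCs the number called was 6 without pXEN line 2, where 55.4% of all tested genes were called. NAP1L5 was among the 6 (−1.74, edgeR adjusted p = 0.0045), with 25, 54 and 14 counts in pXEN lines 1 to 3. Between the ESC types the number was 3 without pXEN line 2, where 43.8% of all tested genes were called. It fell without any other library but pXEN line 3, as did the number of all tested genes called.

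Of 19 other symbols known for maternal expression, 10 had a row and 8 were tested. Against nESCs, 5 were higher in pXEN cells and 1 was lower, beside 28.3% and 26.2% of all tested genes, and the median log2 fold change was 3.45. PHLDA2, which restrains growth of the placenta, had 127, 204 and 109 counts in the pXEN lines and 281 and 427 in the pESC lines, but 2 and 0 in the nESC lines, where it was not detected. Its count ratio of pXEN cells over nESCs was 161 (95% exact interval 44.4 to 1337). This and the other intervals of count ratios pool the reads of the lines and cover counting error only, while the lines differed by more than counting error. The transporter gene SLC22A18, next to PHLDA2 in mammals, had 96, 130 and 137 counts in the pXEN lines and at most 1 in any ESC library. OSBPL5 had 531, 547 and 639 counts in the pXEN lines, 12 and 13 in the nESC lines, and 336 and 372 in the pESC lines. The other genes called higher were GRB10, an adaptor that restrains insulin receptor signalling (log2 fold change 1.26, edgeR adjusted p = 1.95e-05), and TFPI2 (112 counts in pXEN line 2, 37 and 41 in lines 1 and 3, and 0 and 2 in the nESC lines).

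The 1 gene of maternal expression that was lower was SLC22A3, an organic cation transporter that is the nearest named gene below IGF2R on this assembly. It had 44 and 19 counts in the nESC lines and 0 in the 5 other libraries. It was at least 9.54-fold lower in pXEN cells and at least 11.6-fold lower in pESCs, with a floor of 3 counts per library, and its edgeR adjusted p of 0.00362 and 0.0107 became 0.149 and 0.237 with DESeq2. Over the alternatives, adjusted p for SLC22A3 against nESCs ranged from 0.000422 to 0.149 in pXEN cells and from 0.00155 to 0.237 in pESCs. In pESCs the call was also lost without nESC line 1 (edgeR adjusted p = 0.0839), pESC line 1 (0.0563) or pESC line 2 (0.0582). Against pESCs, SLC22A18 (count ratio 147, 95% exact interval for counting error only 40.5 to 1221), OSBPL5 (log2 fold change 0.98, edgeR adjusted p = 0.000689) and GRB10 (0.26, edgeR adjusted p = 0.045) were higher in pXEN cells, and PHLDA2 was lower (−0.99, edgeR adjusted p = 0.0362). The PHLDA2 call was lost in 6 of 15 alternatives, with adjusted p from 0.00571 to 0.277. Of all tested genes, 23.9% were called higher and 24.4% lower in pXEN cells than in pESCs. The number of 4 maternally expressed genes became 2 without pXEN line 1 or pXEN line 3, where 41.6% and 42.8% of all tested genes were called. It also fell without pESC line 1 or pESC line 2, as did the number of all tested genes called. In pESCs against nESCs, PHLDA2, OSBPL5, TFPI2 and GRB10 were higher and SLC22A3 lower, beside 19% and 13.3% of all tested genes. Fewer of these were called without nESC line 1 or pESC line 1, and fewer of all tested genes.

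**Figure D4:**
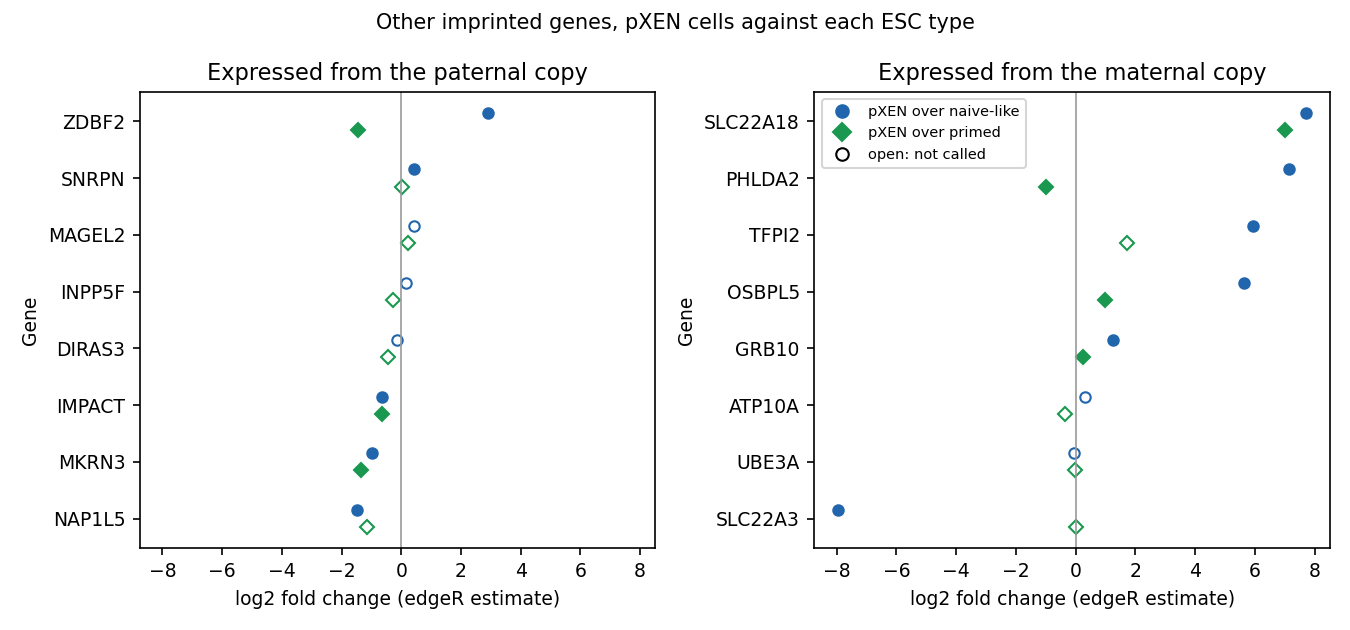
Log2 fold change (edgeR estimate, x axis) of the other imprinted genes tested, by the parental copy they are known to be read from, for pXEN cells over nESCs (circles) and over pESCs (diamonds), with open symbols where not called. Estimates of genes with at most 3 counts in every library of a group (SLC22A18, PHLDA2, TFPI2 and SLC22A3) depend on the prior count and are no measure of size, while ZDBF2 lies at 2.89 over nESCs and at −1.46 over pESCs.

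IGF2 and IGF2R act in the IGF axis, in which binding proteins (IGFBPs) hold the ligands and proteases of the PAPPA family cut the binding proteins. Of 18 symbols of this axis, 14 had a row and 13 were tested. In pXEN cells 7 of these exceeded their nESC level and 1 fell below it, while 4 exceeded and 5 fell below their pESC level, all as calls of the edgeR test. Of all tested genes, 54.5% were called in either direction over nESCs and 48.3% over pESCs. IGFBP5 had 404, 390 and 396 counts in the pXEN lines, 1 and 8 in the nESC lines, and 212 and 238 in the pESC lines (log2 fold change over nESCs 6.56, edgeR adjusted p = 1.19e-05). With so few nESC counts, this value ranged from 3.73 to 8.63 over the alternatives. IGFBP6 had 49, 72 and 80 counts in the pXEN lines, 1522 and 1727 in the pESC lines, and 0 and 3 in the nESC lines, where it was not detected. IGFBP6 was 19.96-fold lower in pXEN cells than in pESCs (edgeR adjusted p = 9.24e-06), and its count ratio of pESCs over nESCs was 979 (95% exact interval for counting error only 335 to 4750). In pXEN cells IGFBP6 thus lay between the ESC types, while IGFBP5 lay above both. The value of IGFBP5 over pESCs was 1.11 (edgeR adjusted p = 0.0114), a call lost without pESC line 1 (adjusted p = 0.0897), without pESC line 2 (edgeR adjusted p = 0.0801) and with limma at a pseudocount of 0.1 (limma adjusted p = 0.0686).

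IGFBP4 was higher in pXEN cells than in pESCs (log2 fold change 2.17, edgeR adjusted p = 0.00356), and IGFBP3, with 0 counts in the pXEN lines and 11 and 30 in the pESC lines, was at least 5.61-fold lower. IGFBP7 was lower in pXEN cells than in nESCs (−0.56, edgeR adjusted p = 0.0417), a call that 7 of 16 alternatives did not give, and lower in pESCs than in nESCs (−2.52, edgeR adjusted p = 0.000228). PAPPA had 16, 15 and 1 counts in the pXEN lines, 0 in both nESC lines and 87 and 113 in the pESC lines, which put pESCs at least 30.1-fold above nESCs. PAPPA was not detected in pXEN line 3, and its call for pXEN cells over nESCs (edgeR adjusted p = 0.0203) was lost in 4 of 15 alternatives, with adjusted p from 0.00119 to 0.183. PAPPA2 was called higher in pXEN cells than in pESCs (2.12, edgeR adjusted p = 0.0406), and 8 of 13 alternatives did not give the call. In pESCs against nESCs, 5 genes of the axis were higher, INSR, IGFBP2, IGFBP5, IGFBP6 and PAPPA, and IGFBP7 was lower, beside 19% and 13.3% of all tested genes. The numbers of the axis called in pXEN cells against an ESC type fell when either line of that type was left out. The number of all tested genes called fell in the same fits.

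Gsα, the main product of GNAS, stimulates adenylyl cyclases (ADCY), whose product cAMP activates protein kinase A. Of 18 symbols of this pathway, 11 had a row and 11 were tested. In pXEN cells 0 were called above and 6 below their nESC level, while 1 was called above and 8 below their pESC level. Of all tested genes, 54.5% were called in either direction over nESCs, which is also the share of this list, with 26.2% lower, and 48.3% were called over pESCs, with 24.4% lower. The median log2 fold change of the 11 was −0.96 over nESCs and −1.07 over pESCs. ADCY2 had 1, 3 and 3 counts in the pXEN lines, where it was not detected, against 260 and 233 in the nESC lines and 298 and 280 in the pESC lines. GNAL, which encodes a relative of Gsα, had 0 counts in all pXEN lines, 28 and 15 in the nESC lines and 62 and 42 in the pESC lines, and was at least 6.51-fold lower in pXEN cells than in nESCs. ADCY2 and GNAL thus separated pXEN cells from both ESC types.

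Against pESCs, ADCY4 (0, 4 and 0 counts in the pXEN lines, 1133 and 1051 in the pESC lines) and ADCY1 (0 counts in the pXEN lines, 93 and 78 in the pESC lines) were lower. The count ratio of pESCs over pXEN cells was 673 for ADCY4 (95% exact interval for counting error only 262 to 2471), and ADCY1 was at least 23.4-fold lower in pXEN cells. PRKACA, a catalytic subunit of protein kinase A, was the 1 gene that was higher in pXEN cells than in pESCs (log2 fold change 0.59, edgeR adjusted p = 0.00354), a call lost without pESC line 2 (0.53, edgeR adjusted p = 0.0505). In pESCs, 4 of the 11 were higher than in nESCs and 0 lower, near the 32.2% of all tested genes called in either direction (19% higher). They were ADCY4 (8.10, edgeR adjusted p = 0.000135), ADCY5 (4.82, edgeR adjusted p = 0.00624), ADCY1 (3.16, edgeR adjusted p = 0.0218) and PRKAR1A (0.65, edgeR adjusted p = 0.013), a regulatory subunit. The nESC lines had 7 and 0 counts of ADCY4, 5 and 22 of ADCY5, and 3 and 14 of ADCY1. The value of ADCY4 ranged from 4.62 to 12.93 over the alternatives. The number of 4 fell without nESC line 1, pESC line 1 or pESC line 2, as did the number of all tested genes called. ADCY1 lost its call in each of these fits, and ADCY5 without nESC line 1 or pESC line 1.

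Among 13 symbols of proteins that set or keep imprints, 7 had a row and 6 were tested. ARID4B was higher in pXEN cells than in nESCs (log2 fold change 0.74, edgeR adjusted p = 0.00424) and than in pESCs (0.58, edgeR adjusted p = 0.0148). SETDB1, a histone methyltransferase, was lower in pXEN cells than in nESCs (−0.90, edgeR adjusted p = 0.000773) and lower in pESCs than in nESCs (−0.79, edgeR adjusted p = 0.00557). The other 4 were not called in any comparison. The 2 called over nESCs, 1 over pESCs and 1 between the ESC types stand beside 54.5%, 48.3% and 32.2% of all tested genes called in either direction. ZFP57, a zinc finger protein that guards imprints, had 8, 8 and 10 counts in the pXEN lines, 10 and 0 in the nESC lines, and 41 and 7 in the pESC lines. The number called was 4 against nESCs without pXEN line 2, where 60.0% of all tested genes were called. Without pESC line 2 fewer were called in both comparisons with pESCs, and fewer of all tested genes.

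The nearest named genes on the assembly show which members share their surroundings. COPG2 overlaps MEST and BLCAP contains NNAT, each on the other strand, so where strand was not used in counting their reads could not be told apart from those of the member. COPG2 was not called between pXEN cells and nESCs (log2 fold change −0.14, edgeR adjusted p = 0.258), where MEST was lower, and it was lower in pXEN cells than in pESCs (−0.36, edgeR adjusted p = 0.0151), as MEST was. BLCAP was lower in pXEN cells than in pESCs (−0.86, edgeR adjusted p = 0.0044), as NNAT was, and was not called over nESCs (−0.30, edgeR adjusted p = 0.187). BLCAP had 1006 and 867 counts in pESC lines 1 and 2, and NNAT 125 and 1236. ssc-mir-335, a miRNA within MEST, had at most 3 counts in any library and was not detected.

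Beside SGCE, CASD1 was lower in pXEN cells than in nESCs (−0.41, edgeR adjusted p = 0.0284) and than in pESCs (−0.72, edgeR adjusted p = 0.00251), with smaller differences than SGCE or the PEG10 row. Beside GNAS, NELFCD was lower in pXEN cells than in nESCs (−1.11, edgeR adjusted p = 0.000271), where GNAS was higher, and than in pESCs (−1.32, edgeR adjusted p = 0.000148), where GNAS was lower too. Neither NPEPL1 nor NELFCD was called between the ESC types (edgeR adjusted p = 0.384 and 0.307), where GNAS was higher in pESCs. Beside PEG3, ZFP28 was lower in pXEN cells than in nESCs (−0.83, edgeR adjusted p = 0.000357). Against pESCs, where PEG3 was lower, ZFP28 was not called (−0.03, edgeR adjusted p = 0.841). ZNF134 had 396 to 412 counts in the pXEN lines, 0 and 3 in the nESC lines, and 12 and 63 in the pESC lines. STX11, below PLAGL1, had 93, 198 and 117 counts in the pXEN lines and at most 2 in any ESC library, whereas PLAGL1 was lower in pXEN cells. SRC, below NNAT, was higher in pXEN cells than in nESCs (2.82, edgeR adjusted p = 2.49e-06) and than in pESCs (2.89, edgeR adjusted p = 3.79e-06). CTNNBL1, above NNAT, was not called in any comparison. CEP41, above MEST, was lower in pXEN cells than in nESCs (−1.03, edgeR adjusted p = 0.0107) and than in pESCs (−0.89, edgeR adjusted p = 0.023). MAS1, TSGA13, PON3 and ZC2HC1B, the remaining neighbours, were not tested and had at most 5 counts in any library.

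Among the genes of the list, IGF2R and PEG3 were the maternally and the paternally expressed gene with the most counts. The PEG10 row stands outside the list. The genes with the pattern most like theirs were ranked by Pearson's r of log2 CPM over the 7 libraries, among 10754 genes. For IGF2R they were BDP1 (r = 0.987), ZNF462 (0.983) and HNRNPUL1 (0.983). For PEG3 they were E2F4 (0.999), SALL3 (0.995) and UBQLN4 (0.994). The libraries form 3 groups and share depth and preparation, so r describes likeness here and carries no test. SALL3 was at 10.6 and 10.7 FPKM in the nESC lines, at 0.399 and 0.249 in the pESC lines, and at most 0.0191 in the pXEN lines.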

How the data were processed

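Ribosomal RNA was depleted and directional libraries were sequenced from 7 lines. The authors deposited raw counts of reads per gene and the FPKM of each gene, in which fragments are scaled by gene length and library. The submitters' processing notes name HISAT2 2.0.5, featureCounts 1.5.0-p3, edgeR 3.22.5 and the build Sscrofa10.2. The strand setting of the counting is not given in the sources used here.

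From the counts, differences were tested with edgeR's quasi-likelihood test (edgeR 4.0.16, R 4.3.3) in 1 model of 7 libraries, with TMM factors, filterByExpr and Benjamini-Hochberg adjustment over all 17447 genes tested. Adjusted p values below 0.05 were called, and SE is that of the log2 fold change. The biological coefficient of variation was 0.223. Fold bounds used a floor of 3 counts per library. FPKM values served for levels and, as log2(FPKM + 0.1) and log2(FPKM + 1), for limma 3.58.1. DESeq2 1.42.0, other scalings, other filters, a replicate block and leaving out each library were the alternatives. The scripts were tested on simulated data.

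Groups were taken from the labels. Counts of replicate libraries differed by more than sampling noise (chi-square per degree of freedom 6.20 to 36.4), so no library was counted as a copy. The members and gene lists were chosen with earlier results of these data known. A member was the row of its symbol with the most counts. From other lists, up to 2 called genes with the largest and 2 with the smallest log2 fold change per comparison were named, together with genes at 3 counts or fewer in all libraries of 1 type and over 100 in every library of another. The nearest named gene on each side of a member and the 3 genes most like IGF2R and PEG3 were also named. Further genes of short call lists, ZFP57 and the PEG10 row were named after their values were seen. Sequences were not analysed here.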

Additional observations from a re-analysis of the deposited data

Results flagged for a closer look

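The 14 rows on chromosome Y, which enter no comparison, together held 38 counts in pXEN line 2, 11 in nESC line 1 and 4 in nESC line 2. Their sums were 1, 3, 0 and 1 in pXEN lines 1 and 3 and pESC lines 1 and 2. All 11 counts of nESC line 1 and 3 of the 4 of nESC line 2 lay on a single row without annotation. That row had 2 counts in pXEN line 2, where the rows named DDX3X and USP9Y had 16 and 6. The limit of 3 counts applies to single rows. pXEN line 2 was also the library with the highest fibroblast marker sum (257 FPKM). Without it, 1 gene of the list was called higher and 5 lower against nESCs, and 0 higher and 7 lower against pESCs, the same numbers as with it, while the share of all tested genes called in either direction was 60.0% and 55.4% without it and 54.5% and 48.3% with it. The part of this library in the values was not tested further.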

How the results depend on the processing

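Of 336 values of the 7 tested genes under alternatives, 324 kept their side of the threshold, 9 lost their call, 3 gained one and 0 called values reversed. Uncalled values near 0 could turn sign, as for NNAT in pXEN cells over nESCs (−0.12, range −0.46 to 0.29) and MEST in pESCs over nESCs (−0.05, range −0.32 to 0.19). The number of genes of the list called higher in pESCs than in nESCs, 2, was 1 with limma at either pseudocount. The replicate numbers did not pair the samples (correlations of −0.009 to 0.044 between same-numbered lines). With the number as a block, no call of the list changed, and 8274, 6993 and 5041 genes were called against 9514, 8429 and 5621 for pXEN cells over nESCs, pXEN cells over pESCs and pESCs over nESCs. The block gave 3 other paternally expressed genes over nESCs, 2 maternally expressed genes and 0 imprint regulators over pESCs. Upper-quartile scaling moved the median of all genes by up to −0.16 (log2) and gave 4 regulators over nESCs, 2 over pESCs, and 1 paternally expressed gene between the ESC types. A minimum of 10 counts in every library left 12261 genes, with 3 maternally expressed, 7 of the IGF axis and 5 of the Gs pathway, and called 54.6%, 46.1% and 31.6% of all genes in the 3 comparisons. It gave 2, 1 and 2 maternally expressed genes, 3, 3 and 2 genes of the IGF axis in the 3 comparisons, and 4 and 1 of the Gs pathway over pESCs and between ESC types. The cause of the other changes was not tested.

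Leaving out 1 library gave, for pXEN cells over nESCs, 7287 to 10359 genes in all, 3 to 6 paternally expressed, 4 to 9 of the IGF axis and 2 to 4 regulators. Over pESCs it gave 5553 to 9566 in all, 4 to 7 of the list lower, 3 to 6 paternally and 2 to 4 maternally expressed, 4 to 10 of the IGF axis and 0 to 1 regulators. Between the ESC types it gave 2965 to 7566 in all, 1 to 3 of the list higher, 1 to 3 paternally and 3 to 5 maternally expressed, 0 to 1 regulators and 1 to 6 of the Gs pathway. Where an ESC type is left with 1 library, that library is assumed to vary like the others. The list medians printed in the report were the same with genes at 0 counts set to their bound. SGCE, with 19 to 36 counts, had the fewest in the pXEN lines among the tested genes of the list.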
